A study of Gallus gallus with 18 samples.

Results

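Around the chicken alpha-globin gene cluster lie genes that have no part in making haemoglobin. Of these, AXIN (ENSGALG00000007480), HMOX2 (ENSGALG00000007638), KIAA0556 (ENSGALG00000000687), METTL22 (ENSGALG00000000305) and CLCN1 (ENSGALG00000007737) were chosen by their read counts, which were well above 0 in every cell type of the study. They are 5 of the 17108 Ensembl genes in the count files, and 5 of the 27 genes of the studied region that could be paired with an identifier, out of 35 that the study lists. Since these counts chose them, presence in all 3 cell types needs no test, and it is given as a description. For CLCN1, the place in the region rests on the study's list alone.

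Total RNA depleted of ribosomal RNA was sequenced from HD3dif, HD3pr and DT40 cells, with 2 libraries per group, which the study calls independent biological replicates. HD3dif cells were HD3 erythroblasts taken through 14 h of induced differentiation with 20 µM iso-H-7, an inhibitor of protein kinases, and 10 mM HEPES at 42 °C under air. HD3pr cells were the same line, proliferating at 37 °C without these additions. HD3 is clone A6 of a chicken erythroblast line transformed by avian erythroblastosis virus. DT40, kept at 37 °C, is a lymphoid line that came from a bursal tumour induced by an avian leukosis virus. All groups are thus transformed lines with no normal counterpart in the series, each lineage is represented by a single line, and drug, buffer, temperature and gas phase changed together in HD3dif, so that their effects cannot be told apart.

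The 5 genes belong to unrelated pathways. AXIN encodes the scaffold of the complex that marks beta-catenin for destruction and so holds the Wnt pathway in check. HMOX2 encodes the constitutive heme oxygenase, which opens the heme ring to biliverdin with release of iron and carbon monoxide. KIAA0556, now named KATNIP, encodes a protein that binds the microtubule-severing enzyme katanin and is found at the base of cilia. METTL22 encodes a methyltransferase that, in human cells, modifies lysine on a DNA- and RNA-binding protein. CLCN1 is the name of the chloride channel that steadies the membrane of skeletal muscle in mammals. Genes of this kind, used in most tissues, lie on both sides of the alpha-globin cluster in birds and mammals, and the distant enhancer of the cluster is itself within an intron of such a gene, NPRL3.

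In the RefSeq gene order of chicken chromosome 14 (assembly GRCg7b, another build than that of the counts, so no coordinates are given), METTL22 and KIAA0556 lie on one side of the alpha-globin gene HBZ and AXIN and HMOX2 on the other. By number of genes AXIN is the nearest, between MRPL28 and PDIA2, with 4 protein-coding genes between it and HBZ. KIAA0556 lies between GSG1L and GTF3C1, with 6 such genes between it and HBZ. For METTL22, next to TMEM114, the number between is 14, and for HMOX2, between CDIP1 and ZKSCAN7, it is 22. Gene numbers do not give distances in bases. RBFOX1, which the study places in a gene desert, lies between METTL22 and HBZ in this order. The table puts CLCN1 on chromosome 1, and the only CLCN gene that it has on chromosome 14 is CLCN7, which in mammals encodes a chloride and proton exchanger of lysosomes. The name CLCN1 for ENSGALG00000007737 and its place in the region therefore rest on the study's list of region genes alone. The name is kept here as a label.

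The study probed the promoter of AXIN in its chromosome conformation work, at a CTCF-binding site that it labels +74 kb. The 19-base primer it designed there is shown, 5′ to 3′, because it is the designed sequence that ties a member of the group to a fixed site on chromosome 14.
AXIN1 promoter primer: aagtgagcacggtcagagc

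The counts of a library, with reads assigned to no gene included, summed to 53441424 to 72817624, of which 20100063 to 33433279 were counted on genes. These sums are called all reads here. Reads without a unique alignment made up 15.5% to 21.9% of them. Reads counted on genes made up 33.0% to 35.8% of all reads in HD3dif, 44.4% to 46.2% in HD3pr and 53.8% to 55.4% in DT40, and reads without a gene feature 45.9% to 46.6%, 33.3% to 34.1% and 26.9% to 28.7% in the same groups. The share of reads on genes therefore moved with the groups, and its part in the results below was tested only by taking all reads as the library size. HBZ, an alpha-globin gene and marker of the erythroid line, had 1000 and 1163 reads in HD3dif (45.6 and 44.7 CPM, counts per 1000000 reads on genes with TMM scaling), against 180 and 133 reads in HD3pr (6.44 and 4.88 CPM). DT40 had 0 and 0 reads of HBZ, which allows a level of up to 0.0480 CPM over the group, so the labels and this marker did not disagree.

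All 5 genes had higher mean CPM in HD3dif and in HD3pr than in DT40. In HD3dif against HD3pr, 4 of them had higher mean CPM and CLCN1 a lower one, and the largest difference was 1.75-fold. Against DT40, HD3dif had 1.52-fold (CLCN1) to 3.63-fold (AXIN) the level, and HD3pr 1.40-fold (KIAA0556) to 2.29-fold (METTL22). Over the 30 values, the genes had 262 to 1706 reads in a library and a counting error of 2.42% to 6.18%, and levels ran from 7.75 CPM (AXIN in DT40) to 64.3 CPM (METTL22 in HD3dif). CPM are not divided by gene length, so levels are compared between cell types and not between genes. As in any bulk sample, fewer cells that use a gene and less of its RNA per cell cannot be told apart.

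**Figure D1:**
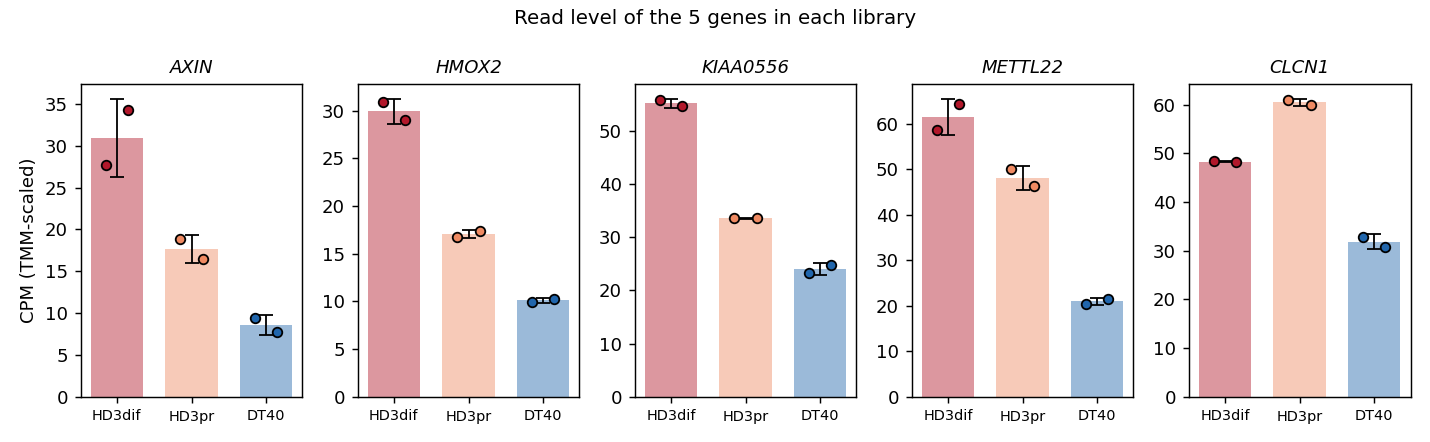
CPM of the 5 genes (vertical axis, TMM-scaled, own scale for each gene) in HD3dif, HD3pr and DT40; points are the 2 libraries of a group, bars their mean and error bars the SD. In AXIN, HMOX2, KIAA0556 and METTL22 the points step down over the 3 groups without overlap, and in CLCN1 the 2 HD3pr points, at 61.0 and 59.9 CPM, are the highest. Between 2 groups, 45.5% to 48.7% of all tested genes stood apart upward and 42.1% to 46.0% downward.

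A gene was counted as higher or lower where its Benjamini-Hochberg adjusted p, over all 10898 genes tested by edgeR's quasi-likelihood test, was below 1e-07 and its log2 fold change beyond 0.6, the limits that the study names. In HD3dif against HD3pr, 1 of the 5 genes, KIAA0556, was higher and 0 were lower, where 12.0% of all tested genes were higher and 18.6% lower. All 5 genes had an unadjusted p below 0.05 in edgeR in this comparison. So had at least the 40.0% of all tested genes that were higher and the 39.3% that were lower at an adjusted p of 0.05. DESeq2 called 3 higher (AXIN, HMOX2 and KIAA0556) and 0 lower, where it called 16.1% of all tested genes higher. With the p limit set at 0.05 and no fold limit, 4 genes were higher and 1 was lower, beside 40.0% and 39.3% of all tested genes. Without any 1 of the HD3dif or HD3pr libraries, 0 of the 5 genes passed both limits, where 6.89% to 7.26% of all tested genes were higher. Without either DT40 library, which are not part of the contrast but enter the estimate of spread, 3 passed (AXIN, HMOX2 and KIAA0556), where 15.5% to 15.9% of all tested genes were higher.

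In HD3pr against DT40, 2 of the 5 genes, METTL22 and CLCN1, were higher, beside 23.0% of all tested genes (18.3% were lower). DESeq2 added AXIN, where it called 22.6% of all tested genes higher. At an adjusted p of 0.05 all 5 were higher, where 44.5% of all tested genes were higher and 38.4% lower. In HD3dif against DT40, all 5 genes passed both limits and were higher, beside 27.3% of all tested genes (27.1% were lower). At an adjusted p of 0.05 the shares were 45.8% higher and 43.5% lower, again with all 5 genes higher. CLCN1 was barely past both limits there and 4 genes passed under most other settings. In those of these settings that kept 2 libraries per group, 23.3% to 28.1% of all tested genes were higher. The comparisons share libraries and are not independent of each other, so their calls are given side by side only.

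For every gene in every comparison, the libraries of both groups did not overlap. In HD3dif against HD3pr this held upward for 4 genes, beside 45.5% of all tested genes, and downward for 1, beside 43.6%. It held upward for all 5 genes in HD3pr against DT40, beside 48.7% (42.1% downward), and for all 5 in HD3dif against DT40, beside 47.8% (46.0% downward). With 2 libraries per group such separation is common among all genes. The median log2 fold change of the 5 genes was 0.72 in HD3dif against HD3pr, 0.93 in HD3pr against DT40 and 1.55 in HD3dif against DT40. Over all tested genes it was 0.03, 0.08 and 0.04 in the same order, and over the 22 other paired genes of the region 0.69, 0.11 and 0.83.

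**Figure D2:**
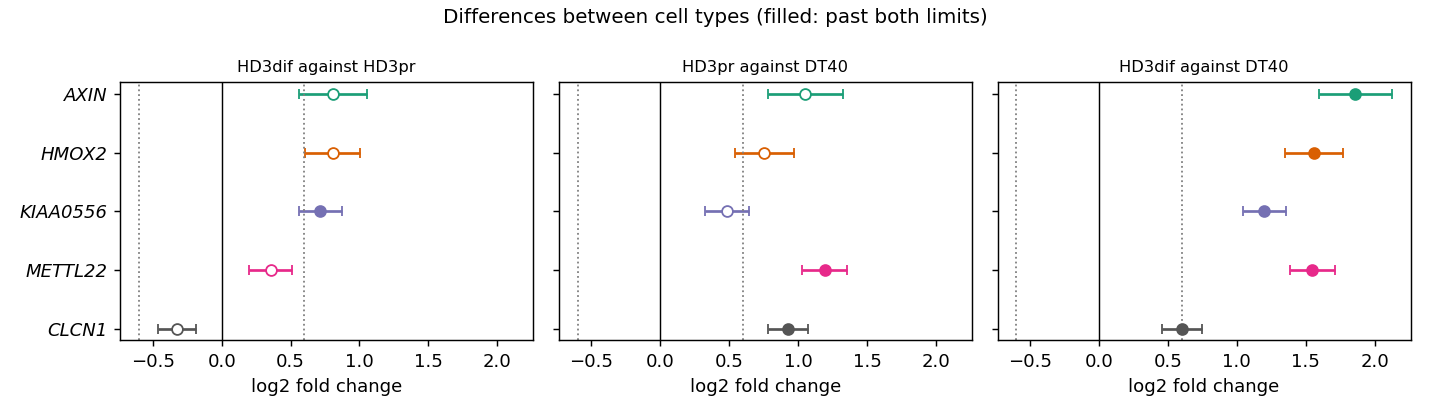
Log2 fold change of each gene (horizontal axis) with its 95% interval in the 3 comparisons; filled points passed both limits, open points did not, and dotted lines mark a log2 fold change of 0.6 in either direction. KIAA0556 is the only filled point in HD3dif against HD3pr, and all 5 points are filled in HD3dif against DT40, with CLCN1 at 0.60 on the line.

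AXIN had the widest span of the 5 genes. It had 606 and 892 reads in HD3dif, 528 and 450 in HD3pr, and 269 and 262 in DT40. Scaled by library, these were 27.6 and 34.3 CPM in HD3dif (mean 30.9 ± 4.68), 18.9 and 16.5 CPM in HD3pr (17.7 ± 1.67), and 9.39 and 7.75 CPM in DT40 (8.57 ± 1.16; SD, n = 2 each). The lowest HD3dif library was 1.46 times the highest HD3pr library, and the lowest HD3pr library 1.76 times the highest DT40 library, so that the groups stood apart. AXIN was also the gene on which replicates differed most, by 1.24-fold in HD3dif, 1.14-fold in HD3pr and 1.21-fold in DT40. Its counting error in a single library was 3.35% to 6.18%. That of a ratio of 2 libraries is larger and was not computed.

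The log2 fold change of AXIN was 1.86 in HD3dif against DT40 (SE 0.126, 3.63-fold, 95% interval 3.03 to 4.36; edgeR adjusted p = 1.8e-11), which passed both limits. It was 0.81 in HD3dif against HD3pr (SE 0.117, 1.75-fold, 95% interval 1.48 to 2.08; edgeR adjusted p = 3.2e-06) and 1.05 in HD3pr against DT40 (SE 0.130, 2.07-fold; edgeR adjusted p = 2.8e-07). Both of these exceeded the fold limit and missed the limit on p in edgeR, while DESeq2 called both higher, at 0.86 (DESeq2 adjusted p = 2.3e-08) and 0.98 (DESeq2 adjusted p = 1.5e-09). Left out in turn, HD3dif replicate 1 and replicate 2 gave log2 fold changes against HD3pr of 1.01 and 0.71. Replicate 1 was the library with the lower AXIN level.

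HMOX2, the constitutive heme oxygenase, had 677 and 755 reads in HD3dif, 470 and 474 in HD3pr, and 285 and 348 in DT40. These were 30.9 and 29.0 CPM in HD3dif (mean 29.9 ± 1.33), 16.8 and 17.4 CPM in HD3pr (17.1 ± 0.415), and 9.95 and 10.3 CPM in DT40 (10.1 ± 0.240; SD, n = 2 each). Replicates of this gene lay close together, within 1.06-fold of each other, while the lowest library of each group was 1.67 and 1.63 times the highest of the next group down. HMOX2 passed both limits in HD3dif against DT40, at a log2 fold change of 1.56 (SE 0.100, 2.95-fold, 95% interval 2.55 to 3.42; edgeR adjusted p = 7.6e-12). In HD3dif against HD3pr it was at 0.81 (SE 0.0959, 1.75-fold, 95% interval 1.52 to 2.01; edgeR adjusted p = 2.1e-07), just short of the limit on p. In HD3pr against DT40 it was at 0.76 (SE 0.103, 1.69-fold; edgeR adjusted p = 1.2e-06), and at 0.35 with all reads as the library size. With TMM scaling both steps between neighbouring groups were of like size for the heme oxygenase gene, and edgeR called neither. HMOX2 was called higher in HD3dif than in HD3pr by 8 of 15 alternatives, DESeq2 among them (0.86, DESeq2 adjusted p = 9.3e-11). These 8 include the p limit of 0.05 alone, which used the same edgeR fit and was bound to be passed. The difference between the steps was not tested.

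KIAA0556, the katanin-interacting protein gene, had 1224 and 1422 reads in HD3dif, 941 and 914 in HD3pr, and 666 and 838 in DT40. The levels were 55.8 and 54.6 CPM in HD3dif (mean 55.2 ± 0.860), 33.7 and 33.5 CPM in HD3pr (33.6 ± 0.0768), and 23.3 and 24.8 CPM in DT40 (24.0 ± 1.08; SD, n = 2 each). The HD3dif libraries stood well above all others, at 1.62 times the highest HD3pr library or more. KIAA0556 rose in HD3dif relative to HD3pr by 0.72 on the log2 scale (SE 0.0738, 1.64-fold, 95% interval 1.48 to 1.83; edgeR adjusted p = 2.6e-08), and was the only one of the 5 genes past both limits there. This call was lost without any 1 of the HD3dif or HD3pr libraries, although the log2 fold change remained between 0.71 and 0.80 over all libraries left out in turn, and the highest adjusted p was 5.9e-06 by edgeR. With all reads as the library size the log2 fold change was 0.57 (edgeR adjusted p = 3.9e-07), short of both limits. Relative to DT40 it rose in HD3dif by 1.20 (SE 0.0752, 2.30-fold; edgeR adjusted p = 5.2e-12). The difference between HD3pr and DT40, at 0.48 (SE 0.0767, 1.40-fold, 95% interval 1.25 to 1.56; edgeR adjusted p = 8.4e-06), was below the fold limit, and it was 0.08 (edgeR adjusted p = 0.508) with all reads as the library size.

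METTL22, the methyltransferase gene, had 1285 and 1675 reads in HD3dif, 1398 and 1259 in HD3pr, and 587 and 728 in DT40. Scaled, it had 58.6 and 64.3 CPM in HD3dif (mean 61.5 ± 4.04), 50.0 and 46.2 CPM in HD3pr (48.1 ± 2.68), and 20.5 and 21.5 CPM in DT40 (21.0 ± 0.729; SD, n = 2 each). Most of its span lay between the HD3pr and DT40 libraries. The lowest HD3pr library was 2.15 times the highest DT40 library, while the lowest HD3dif library was 1.17 times the highest HD3pr library. METTL22 rose by 1.19 in HD3pr relative to DT40 (log2; SE 0.0786, 2.29-fold, 95% interval 2.04 to 2.56; edgeR adjusted p = 1.6e-11) and by 1.55 in HD3dif relative to DT40 (SE 0.0783, 2.93-fold; edgeR adjusted p = 1.4e-13). Between HD3dif and HD3pr the log2 fold change was 0.35 (SE 0.0737, 1.28-fold, 95% interval 1.15 to 1.42; edgeR adjusted p = 2.0e-04), which passed neither limit and ranged from 0.20 to 0.60 over the alternatives.

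CLCN1 was the only one of the 5 genes with its highest level in HD3pr, while its lowest was in DT40. It had 1060 and 1256 reads in HD3dif, 1706 and 1632 in HD3pr, and 942 and 1039 in DT40, that is 48.3 and 48.2 CPM in HD3dif (mean 48.3 ± 0.0788), 61.0 and 59.9 CPM in HD3pr (60.5 ± 0.789), and 32.9 and 30.7 CPM in DT40 (31.8 ± 1.53; SD, n = 2 each). The HD3dif libraries lay between those of the other groups and overlapped neither. CLCN1 rose by 0.93 in HD3pr relative to DT40 (log2; SE 0.0685, 1.90-fold, 95% interval 1.72 to 2.10; edgeR adjusted p = 1.1e-10), a call that was lost with all reads as the library size (0.52, edgeR adjusted p = 9.8e-07). In HD3dif against HD3pr the log2 fold change was -0.32 (SE 0.0675, 0.799-fold, 95% interval 0.724 to 0.881; edgeR adjusted p = 2.1e-04), short of both limits, and -0.07 (edgeR adjusted p = 0.319) with gene-count totals as library sizes. In HD3dif against DT40 it was 0.60 (SE 0.0699, 1.52-fold, 95% interval 1.37 to 1.68; edgeR adjusted p = 9.0e-08), past both limits by a small margin. The call was lost under 13 of 15 alternatives, each single library left out among them, and with all reads as the library size the log2 fold change was 0.05 (edgeR adjusted p = 0.648).

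**Figure D3:**
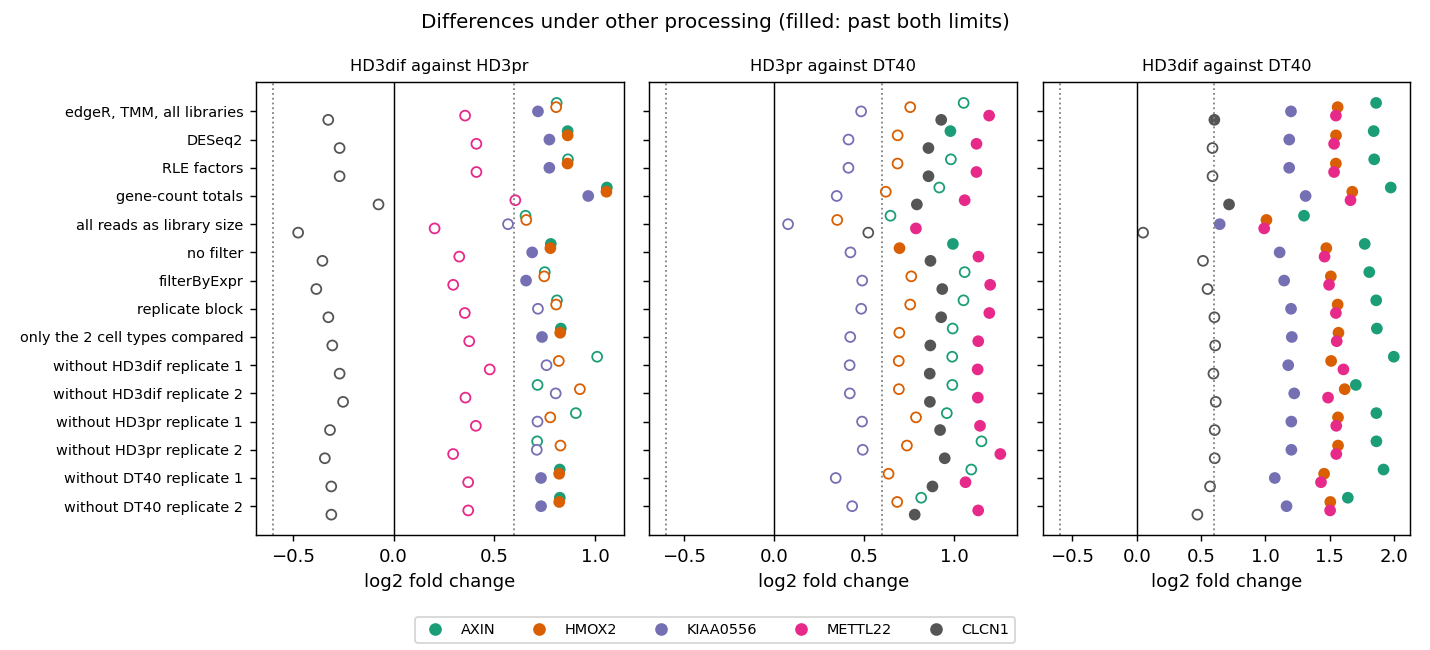
Log2 fold change of each gene (horizontal axis) in the 3 comparisons under edgeR with TMM factors and under 14 other settings (rows); filled points passed an adjusted p of 1e-07 and the fold limit of 0.6, marked by dotted lines. No point crosses 0, the CLCN1 points in HD3dif against DT40 are mostly open, and taking all reads as the library size places every point left of its place in the top row.

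The order of the groups was HD3dif, HD3pr and DT40 from high to low for AXIN, HMOX2, KIAA0556 and METTL22, and HD3pr, HD3dif and DT40 for CLCN1. The highest group mean was 3.61 times the lowest for AXIN, 2.96 times for HMOX2, 2.93 times for METTL22, 2.30 times for KIAA0556 and 1.90 times for CLCN1. Replicates of a group differed by 1.002-fold to 1.24-fold over the 15 pairs, with a median of 1.06-fold, so that every step between neighbouring groups was larger than the difference between replicates of those groups.

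Presence in all cell types was common and did not mean an even level. Of the 10898 genes tested, 8110 (74.4%) had a CPM above 1 in all 6 libraries, as had 21 of the 27 paired genes of the region. Over those 8110 genes, the highest of the 6 libraries exceeded the lowest by a median of 1.21 on the log2 scale, or 2.31-fold. AXIN spanned 2.14, more than 81.2% of them, METTL22 1.65 (68.5%), HMOX2 1.63 (67.9%), KIAA0556 1.26 (52.9%) and CLCN1 0.99 (38.3%). By this measure CLCN1 was steadier than the median broadly expressed gene, KIAA0556 close to it, and the other 3 genes more variable. The filter on low values removed none of the 5 genes.

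Shares within a library do not depend on how libraries are scaled to each other. Of the reads on the 5 genes, CLCN1 took 20.9% to 21.8% in the HD3dif libraries, against 33.8% to 34.5% in HD3pr and 32.3% to 34.3% in DT40. AXIN took 12.5% to 14.9% in HD3dif, against 9.52% to 10.5% in HD3pr and 8.15% to 9.79% in DT40, and HMOX2 12.6% to 14.0%, against 9.32% to 10.0% and 10.4% to 10.8%. The mix of reads thus shifted away from CLCN1 and towards AXIN and HMOX2 in HD3dif. METTL22 took 26.5% to 27.9% in HD3dif and 26.6% to 27.7% in HD3pr, which overlap, against 21.4% to 22.6% in DT40. KIAA0556 took 23.7% to 25.2% in HD3dif and 18.7% to 19.3% in HD3pr, against 24.2% to 26.1% in DT40, so that its HD3dif and DT40 shares overlap and its share was lowest in the proliferating erythroblasts.

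The ratio of HMOX2 to CLCN1 reads was 0.639 and 0.601 in the HD3dif libraries, 0.275 and 0.290 in HD3pr, and 0.303 and 0.335 in DT40. Reads of METTL22 per read of KIAA0556 were 1.05 and 1.18 in HD3dif, 1.49 and 1.38 in HD3pr, and 0.881 and 0.869 in DT40. Both ratios kept each pair of groups apart. Reads of HMOX2 per read of AXIN did not, at 0.846 to 1.12 in HD3dif, overlapping 0.890 to 1.05 in HD3pr and 1.06 to 1.33 in DT40. Of the 10 ratios between member genes, 8 kept HD3dif apart from HD3pr, 8 HD3pr from DT40 and 8 HD3dif from DT40. Separation of groups was thus common among the ratios and not particular to those named. These ratios use raw reads, are not corrected for length, and were not tested.

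**Figure D4:**
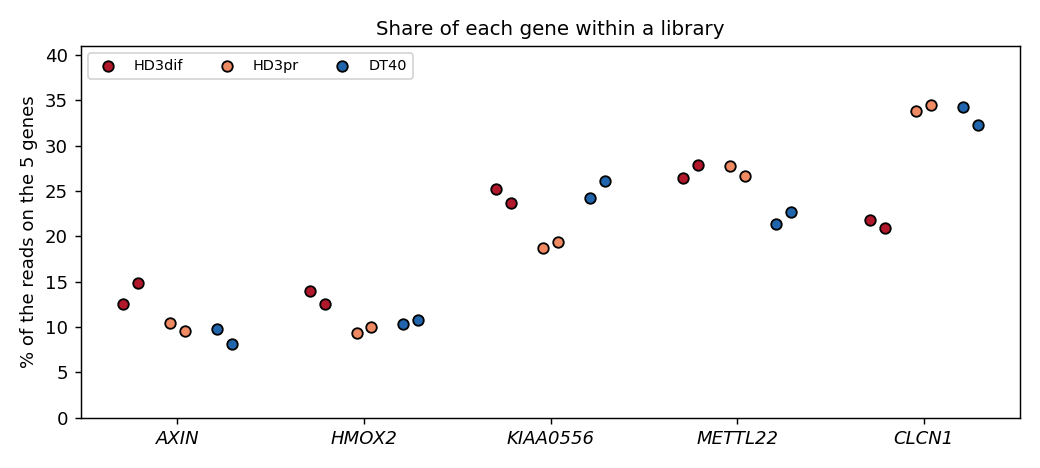
Share of each gene in the reads on the 5 genes (vertical axis, percent) in each library; points are libraries, coloured by group in the order HD3dif, HD3pr, DT40. The 2 HD3dif points of CLCN1, at 20.9% and 21.8%, lie below those of both other groups, and the HD3dif points of AXIN and HMOX2 lie above.

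Among the 5 genes, the levels of HMOX2 and KIAA0556 over the 6 libraries were most alike, with a Euclidean distance of 0.378 between their centred log2 CPM (prior count 2), and 1.08% of all tested genes were closer to HMOX2 than KIAA0556 was. CLCN1 stood farthest from the others, at distances of 0.986 (METTL22) to 1.40 (AXIN). Of the 22 other paired genes of the region, RHBDF1, which encodes an inactive rhomboid protein, was nearest to HMOX2 (0.333), KIAA0556 (0.432) and METTL22 (0.533). Next in order came Ep300 and C16orf72 for HMOX2 and METTL22, and C16orf72 and Ep300 for KIAA0556. Of all tested genes, 2.04% and 14.1% were closer to HMOX2 than these, 6.59% and 13.9% to METTL22, and 9.74% and 10.5% to KIAA0556. Closer than RHBDF1 were 0.780% to HMOX2, 2.70% to KIAA0556 and 2.63% to METTL22. The nearest to AXIN was Ep300, named for the histone acetyltransferase, at 0.523, followed by RHBDF1 and ABAT. Of all tested genes, 1.26%, 3.81% and 12.4% were closer to AXIN than these, in that order. Ep300 was looked up in the RefSeq genes in that spelling only and was found on no chromosome. Its place was thus not checked, and its place in the region rests on the study's list alone. The nearest to CLCN1 was GTF3C1, a subunit of an RNA polymerase III factor, at 0.515, followed by C16orf72 and MGRN1. Closer to CLCN1 than these were 4.93%, 6.15% and 14.6% of all tested genes, in that order. These distances rest on 6 libraries in 3 groups and are a description.

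RHBDF1 had 20.4 ± 1.15 CPM in HD3dif, 13.2 ± 0.933 in HD3pr and 7.56 ± 1.60 in DT40 (SD, n = 2 each), and Ep300 had 244 ± 0.683, 113 ± 0.327 and 60.6 ± 5.60 CPM in the same groups. Both followed the order of AXIN, HMOX2, KIAA0556 and METTL22. RHBDF1, Ep300 and GTF3C1 were picked for their likeness to members over these same libraries. A shared order or peak is therefore no separate result. GTF3C1, which had 153 ± 4.10 CPM in HD3dif, 246 ± 1.79 in HD3pr and 142 ± 0.108 in DT40, had its peak in HD3pr as CLCN1 did, and fell in HD3dif relative to HD3pr by 0.69 on the log2 scale (SE 0.0450, edgeR adjusted p = 2.3e-11). GTF3C1 is the immediate neighbour of KIAA0556 in the RefSeq order, and KIAA0556 rose in the same comparison.

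Of the 22 other paired genes of the region, 9 (40.9%) were higher and 4 (18.2%) lower in HD3dif against HD3pr. The shares of all tested genes there were 12.0% and 18.6%. In HD3pr against DT40, 6 (27.3%) were higher and 2 (9.09%) lower, beside 23.0% and 18.3% of all tested genes. In HD3dif against DT40, 9 (40.9%) were higher and 4 (18.2%) lower, beside 27.3% and 27.1%. The nearest paired genes on either side of METTL22, at 0.35 in HD3dif against HD3pr, were ABAT at 1.96 on the log2 scale, an enzyme gene of GABA breakdown, and RBFOX1, a splicing factor gene, at 3.24, which was not called. RBFOX1 had very low levels, 0.147 and 0.322 CPM in HD3pr and a mean of 2.26 CPM in HD3dif. Its SE was 0.477 and its 95% interval 4.73-fold to 18.8-fold. In the same comparison, the nearest paired genes of AXIN were TMEM8A at 3.32 and ARHGDIG at -0.75. Those of HMOX2 were MGRN1 at 0.26 and TRAP1 at -1.13, and those of KIAA0556 were Gsg1l at 1.81 and GTF3C1 at -0.69. Of all these neighbours, ABAT and TMEM8A were called higher, TRAP1 and GTF3C1 were called lower, and the others were not called. With 4 genes placed on the chromosome, no relation of fold change to distance was computed.

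**Figure D5:**
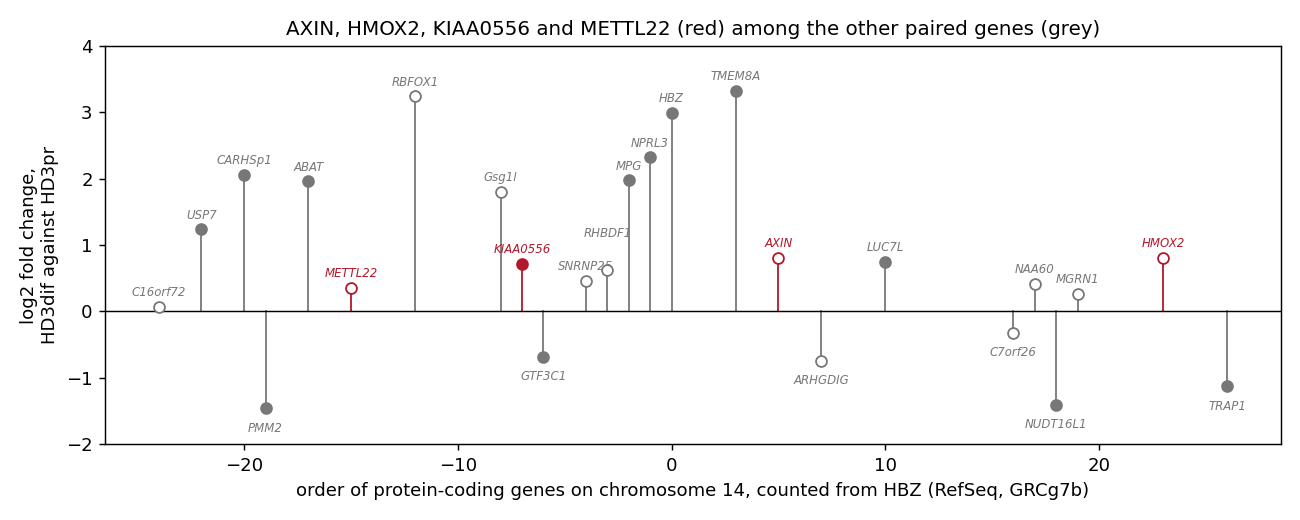
Log2 fold change of HD3dif against HD3pr (vertical axis) of the 25 paired genes placed on chromosome 14, in the order of protein-coding genes counted from HBZ (horizontal axis, RefSeq GRCg7b); red marks METTL22, KIAA0556, AXIN and HMOX2, grey the other genes, and filled points passed both limits. The red points lie between 0.35 and 0.81, below NPRL3, HBZ and TMEM8A at the centre. Grey points away from the centre also lie above the red ones, RBFOX1, CARHSp1 and ABAT among them, and some lie below 0.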

How the data were processed

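The authors base-called reads with CASAVA 1.8.2, aligned them to galGal4 with TopHat2 2.0.12 and Bowtie2 2.2.1 (versions per the submitters' processing notes) and the Ensembl release 82 annotation, and deposited unnormalized read counts per gene made with HTSeq. The library kit keeps the strand, but the strand setting of the counting is not given in the sources used here, so reads of overlapping and antisense genes are uncertain. The rows of reads assigned to no gene (44.6% to 67.0% of reads) stayed out of library sizes and tests.

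Counts of all 6 libraries were fitted with the quasi-likelihood test of edgeR 4.0.16 in R 4.3.3 (TMM factors, genes kept if 2 or more of the 6 libraries had a CPM over 1, Benjamini-Hochberg adjustment over 10898 genes). The SE is the log2 fold change divided by the square root of F, and 95% intervals use the t distribution. The fit was tested on simulated data. Alternatives were DESeq2 1.42.0, RLE factors, gene-count totals, all reads as library size, no filter, filterByExpr, a replicate block, a fit of just the 2 groups in question, a p limit of 0.05 alone, and each library left out. Replicates differed by more than sampling of reads (chi-square per gene 8.80 in HD3dif, 4.46 in HD3pr and 14.2 in DT40, against about 1), so none was merged. Counting errors and limits of a count of 0 cover counting error only.

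The files name genes by identifier. Names of the study's list of 35 region genes were paired with identifiers by matching its listed levels, turned into reads, to the counts of the replicate 1 libraries (at least 20 reads), which gave 27. Those levels served only to identify genes. The genes named were the 5 members, the 3 region genes nearest to each by Euclidean distance and their neighbours on the chromosome. The members, lists and tests were chosen with earlier results of these data known. Lists of pathway, paralog and cell type marker genes were not analysed here, because the RefSeq table used pairs no Ensembl identifiers, so the nearest genes were sought among the 22 other paired genes rather than all genes. RNA coverage, 5C and C-TALE values of the members need galGal4 coordinates of the genes and were not analysed here.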

Additional observations from a re-analysis of the deposited data

How the results depend on the processing

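None of the 15 log2 fold changes of the 5 genes changed direction in any of the 15 alternatives. In 1 of these, the p limit of 0.05 alone, the fit was the same, so no fold change could differ. Counts of calls depended on the setting. In HD3dif against HD3pr, 3 members were higher rather than 1 with DESeq2, gene-count totals, no filter or only the 2 cell types compared. Of all tested genes, 16.1%, 18.1%, 13.4% and 16.5% were higher in these settings, in that order, against 12.0% with edgeR and TMM factors. With RLE factors 2 members were higher (13.5% of all tested genes), and with all reads as the library size 0 (15.3%). At an adjusted p of 0.05 there were 4 higher and 1 lower, beside 40.0% and 39.3% of all tested genes. The count also changed when single libraries were left out, as given above. In HD3pr against DT40, 1 member was higher with all reads rather than 2, 3 with DESeq2, 4 with no filter and 5 at an adjusted p of 0.05. The shares of all tested genes higher in these settings were 18.9%, 22.6%, 18.7% and 44.5%, against 23.0% with edgeR and TMM factors. Replicate numbers did not pair the libraries (correlations of deviations -0.03, -0.06 and 0.05). With a replicate block, 0 members were higher in HD3dif against HD3pr, beside 9.19% of all tested genes. KIAA0556 was at 0.72 there with an edgeR adjusted p of 4.6e-07. All 5 members had an unadjusted edgeR p below 0.05 with the block, but the share of all tested genes below that limit was not computed. DESeq2 without the block called 3. The counts with the block were 2 in HD3pr against DT40 (20.8% of all tested genes higher) and 4 in HD3dif against DT40 (23.9%).

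Over all tested genes in HD3dif against HD3pr, 1970 were higher with gene-count totals and 2024 with no filter rather than 1306. Without the filter 15054 genes were tested rather than 10898, so the share that was higher was 13.4% against 12.0%. Leaving out each library gave 737 to 1654 higher and 1273 to 2161 lower, and an adjusted p of 0.05 gave 4360 and 4279. In HD3pr against DT40, 3701 were lower with all reads, and 4855 were higher and 4185 lower at 0.05. In HD3dif against DT40, 4818 were lower with all reads, and 4995 were higher and 4744 lower at 0.05. Scaling moved all genes together: gene-count totals placed the median log2 fold change of all genes in HD3dif against HD3pr at 0.28 rather than 0.03, and the share of calls that were higher at 58.6% rather than 39.1%. All reads placed the median in HD3pr against DT40 at -0.32 (35.7% of calls higher rather than 55.6%) and in HD3dif against DT40 at -0.52 (34.8% rather than 50.1%). Where a group was left with 1 library, it was assumed to vary like the other groups. With 2 libraries per group the spread of a single gene is poorly known, while the counting error of the 5 genes was at most 6.18%.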
